A study of Arabidopsis thaliana with 21 samples.

Results

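The Arabidopsis thaliana protein GLABRA2 (GL2) regulates transcription in the epidermis and belongs to the HD-Zip family, class IV. In this class a homeodomain contacts DNA, a zipper joins partner proteins, and a START domain can hold a lipid. GL2 is known for promoting trichomes, repressing root hairs in non-hair cells of the root and supporting mucilage production in the seed coat. The altered form described here carries the amino acid substitutions E375G and R392M, both of which lie in the START domain.

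Chromatin immunoprecipitation with sequencing (ChIP-seq) was used to ask where the altered form, gl2_E375G R392M, was found in the genome beside wild-type GL2. Both proteins were fused to enhanced yellow fluorescent protein (EYFP) and expressed from transgenes in plants homozygous for the null allele gl2-5. The genotypes were EYFP:gl2_E375G R392M mutant, EYFP:GL2 wild type and the gl2-5 null mutant without a fusion, all in the Columbia ecotype. Some comparisons also use the peak lists of 3 other altered fusions in the gl2-5 background, EYFP:gl2_dSTART mutant, EYFP:gl2_Amo mutant and EYFP:gl2_dZip mutant, from 2, 3 and 2 ChIP libraries. The labels give no more than these names for what was altered. Seedlings were 10 days old, and chromatin was precipitated with an anti-GFP antibody, which also binds EYFP. Per the labels, the wild-type fusion rescued plants lacking GL2 and the altered fusion did not give a wild-type appearance. Whole seedlings mix many cell types, so binding in fewer cells and weaker binding per cell cannot be told apart. The labels used here do not name the promoter of the transgenes or say how many lines were used, so position and copy number of each transgene cannot be told apart from its protein. There were 3 ChIP libraries for gl2_E375G R392M, 3 for GL2 and 2 for gl2-5, with 1 input library each. The ChIP libraries of a genotype were merged before peaks were called, so each genotype has 1 peak list and no value below has a replicate error or a test.

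Members were the nuclear peaks of both fusion lists that overlapped no gl2-5 peak by 1 bp or more. They numbered 989 of the 1280 nuclear gl2_E375G R392M peaks and 706 of the 1001 GL2 peaks, together 1695 of the 10293 nuclear peaks in all 6 lists of the series. A peak was called shared when it overlapped a member of the other list by 1 bp or more. This gave 811 mutant-only peaks, 178 mutant peaks shared with 182 GL2 peaks, and 524 GL2-only peaks. Shares carry 95% Wilson intervals. These reflect counting error alone, and peaks that lie side by side are taken as separate observations.

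The pair of lists was close in usable depth. With duplicates reduced to 1 tag per position, gl2_E375G R392M had 372864 ChIP tags and GL2 352707, a ratio of 1.06. The kept inputs differed more, with 1021162 tags for the mutant and 1584592 for GL2. The gl2-5 filter was shallower, at 227071 kept ChIP tags. The smallest members held 6 tags in both lists. Absence from a list means that a site did not pass the calling threshold with these tags, not that it was unbound.

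Few sites outside the gl2-5 list were found in both fusion lists. Of the gl2_E375G R392M peaks, 18.0% (15.7 to 20.5) overlapped a GL2 peak, and 25.8% (22.7 to 29.1) of the GL2 peaks overlapped a mutant peak. The mutant-only peaks were rarely near misses. Only 31 of 811 lay within 500 bp of any GL2 peak, and the median gap to the nearest GL2 peak was 37192 bp. From the other side, 37 of 524 GL2-only peaks lay within 500 bp of a mutant peak, with a median gap of 33366.5 bp. At the border of the classes, the smallest overlap of a shared pair was 3 bp, on chromosome 5 (11711238 to 11711896 in the mutant list), and the next was 39 bp. The nearest mutant-only peak, on chromosome 5 (11823062 to 11823300), lay 25 bp from a GL2 peak.

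Sites that also appeared in the gl2-5 list behaved differently. Of the 291 mutant peaks removed for a gl2-5 overlap, 263 overlapped the whole GL2 list, or 90.4% (86.4 to 93.3). Of the 295 GL2 peaks removed in the same way, 265 overlapped the whole mutant list, or 89.8% (85.9 to 92.8). The removed peaks held more tags, with a median of 20 in the mutant list against 8 for the peaks kept. Shares at like tag counts were as follows. Among mutant peaks of 10 to 19 tags, 100 of 112 with a gl2-5 overlap were found in the GL2 list, or 89.3% (82.2 to 93.8), and 31 of 134 without one, or 23.1% (16.8 to 31.0). Among those of 7 to 9 tags the shares were 52.0% (33.5 to 70.0) and 7.19% (4.75 to 10.7), and at 6 tags 1 of 5 and 6 of 328. All 111 mutant peaks with a gl2-5 overlap and 20 to 49 tags were in the GL2 list, as were all 38 with 50 tags or more. Sites listed in plants without any EYFP fusion were found again between the fusions more often, but a gl2-5 overlap itself selects sites that recur.

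**Figure D1:**
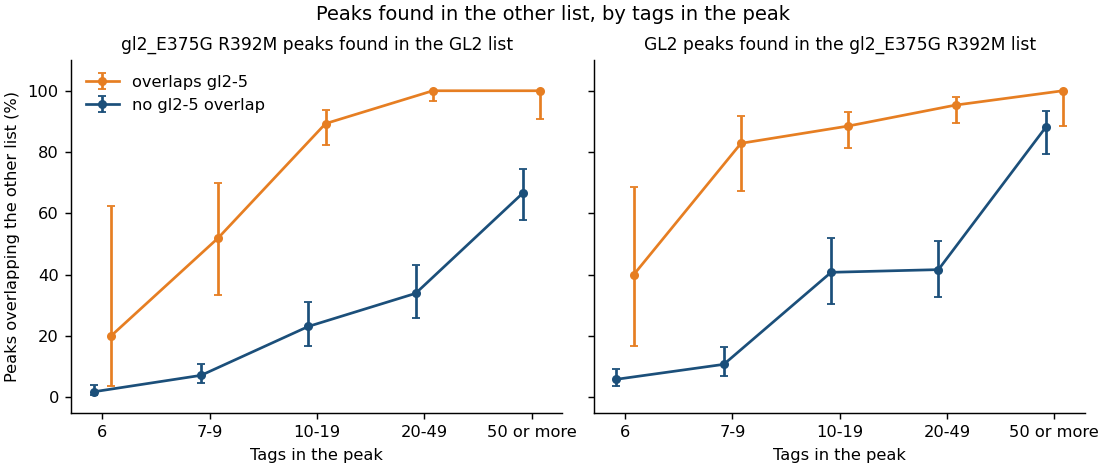
Share of gl2_E375G R392M peaks that overlap the whole GL2 list (left) and of GL2 peaks that overlap the whole mutant list (right), by the number of tags in the peak, for peaks with and without a gl2-5 overlap; points are shares of 1 merged list and bars are 95% Wilson intervals. At 10 to 19 tags, 89.3% of the mutant peaks with a gl2-5 overlap and 23.1% of those without one are in the GL2 list.

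Among members, the share found in the other list rose with the tags in the peak. In the mutant list, 6 of 328 peaks with 6 tags were shared, or 1.83% (0.841 to 3.93), against 82 of 123 peaks with 50 tags or more, or 66.7% (57.9 to 74.4). In the GL2 list the corresponding values were 16 of 271, or 5.90% (3.67 to 9.37), and 73 of 84, or 86.9% (78.1 to 92.5). Mutant-only and GL2-only peaks were both small. The median mutant-only peak had 7 tags and 124 bp, and 322 of the 811, or 39.7% (36.4 to 43.1), stood at the minimum of 6 tags. The median GL2-only peak also had 7 tags, with 122 bp, and 255 of 524 had 6 tags. The median shared peak had 44 tags and 181.5 bp in the mutant list and 37.5 tags and 179 bp in the GL2 list. Since a shared peak had to pass the threshold in both lists, the definition itself favours larger peaks.

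The values of the smallest peaks came in steps. Of the 322 mutant-only peaks with 6 tags, 115 carried the same fold enrichment of 40.99, and of the 255 such GL2-only peaks 78 carried a fold of 42.53. The fold and the score are the authors' caller's values for single peaks, measured against a local background, and were used only to rank and describe peaks within a list. The false discovery rate (FDR), from calls with ChIP and input exchanged, was 5% or less for 470 mutant-only peaks, or 58.0% (54.5 to 61.3), and for 113 GL2-only peaks, or 21.6% (18.3 to 25.3). Each list was called against an input of its own, and an equal FDR limit may therefore not mean equal strictness.

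**Figure D2:**
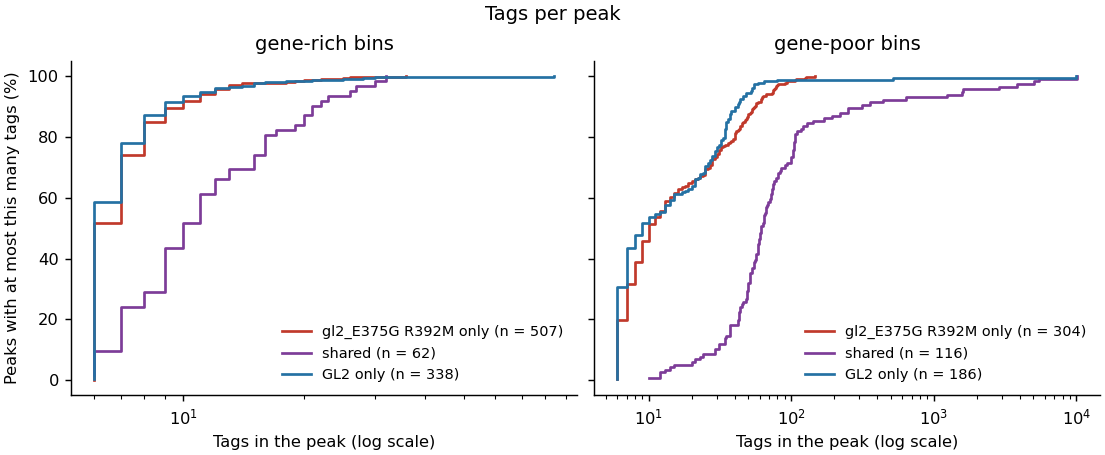
Cumulative share of peaks by tags per peak (log scale) in gene-rich bins (left) and gene-poor bins (right) for mutant-only, shared (mutant side) and GL2-only peaks. The mutant-only and GL2-only curves lie close together, with medians of 6 tags each in gene-rich bins, while shared peaks hold more tags, with medians of 10 and 61.

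Counted over all members, shared peaks lay in gene-poor regions more than unshared peaks did, but not within ranges of tags below 50. The chromosomes were divided into 240 bins of 500 kb with a median of 130 protein-coding genes, and the 38 bins below 50% of that density are called gene-poor. Gene-poor bins held 116 of the 178 shared mutant peaks, or 65.2% (57.9 to 71.8). They held 304 of the 811 mutant-only peaks, or 37.5% (34.2 to 40.9), and 186 of the 524 GL2-only peaks, or 35.5% (31.5 to 39.7). Mutant-only peaks occurred at 16.0 per Mb of gene-poor bins and at 5.06 per Mb of gene-rich bins. For shared mutant peaks the densities were 6.11 and 0.619 per Mb, and for GL2-only peaks 9.79 and 3.38 per Mb.

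Tags differed between these regions along with the class, and in each range below 50 tags the gene-rich share was the higher. Intervals were clear of each other only at 7 to 9 and 10 to 19 tags in the mutant list. In the GL2 list this held only at 10 to 19 tags. Of the mutant peaks with 10 to 19 tags, 25 of 70 in gene-rich bins were shared, or 35.7% (25.5 to 47.4), and 6 of 64 in gene-poor bins, or 9.38% (4.37 to 18.98). At 20 to 49 tags the shares were 55.6% (33.7 to 75.4) and 29.8% (21.5 to 39.7), and at 7 to 9 tags 21 of 213 and 0 of 79. In the GL2 list, the gene-rich and gene-poor shares were 52.0% (38.5 to 65.2) and 19.2% (8.51 to 37.9) at 10 to 19 tags. All 123 mutant members with 50 tags or more were in gene-poor bins. With both lists limited to 10 tags or more, gene-poor bins held 80.6% (73.2 to 86.3) of the shared mutant, 73.5% (67.4 to 78.8) of the mutant-only and 72.0% (63.6 to 79.1) of the GL2-only peaks. With gl2-5 overlaps kept and no tag limit, gene-poor bins held 39.2% (34.8 to 43.9) of the shared mutant peaks. They then held 37.1% (33.9 to 40.4) of the mutant-only and 34.6% (30.8 to 38.7) of the GL2-only peaks.

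Chromosome 5 carried 86 of the 178 shared mutant peaks, or 48.3% (41.1 to 55.6), against 210 of the 811 mutant-only peaks, or 25.9% (23.0 to 29.0). A single bin, chromosome 5 from 11500001 to 12000000, which contains 6 protein-coding genes, held 47 shared mutant peaks, 57 mutant-only peaks and 22 GL2-only peaks. The neighbouring bin to 12500000 held 16 shared mutant peaks. Altogether 5 bins held 51.1% of the shared mutant peaks, whereas 48 bins were needed to reach 50% of the mutant-only peaks. Without the fullest bin, left out after its count had been seen, the share of mutant peaks found in the GL2 list was 14.8% (12.6 to 17.3), and gene-poor bins held 52.7% (44.2 to 61.0) of the shared peaks.

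**Figure D3:**
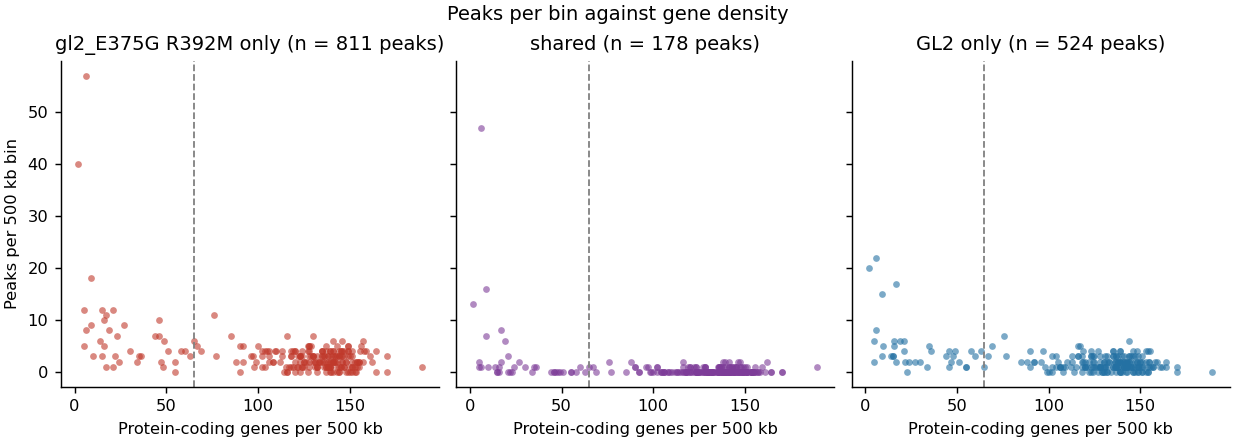
Number of peaks in each 500 kb bin against its protein-coding genes, scaled to a full bin where a chromosome ends, for mutant-only, shared (mutant side) and GL2-only peaks; each point is a bin and the dashed line marks the gene-poor limit. The fullest bin holds 47 shared peaks, and the 62 shared peaks of gene-rich bins lie at 1 or 2 a bin in 53 of 202 bins.

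Most shared sites coincided closely. There were 165 pairs in which each peak had a single partner, of 186 pairs in all. The summits lay within 20 bp of each other in 153 of these, with a median distance of 3 bp. Scaled to kept ChIP tags, the mutant peak held a median of 1.05 times the tags of its GL2 partner, with quartiles of 0.934 and 1.22, and it held more in 103 of 165 pairs. In the 62 gene-rich pairs the median ratio was 1.02 (quartiles 0.813 and 1.25), with 32 higher in the mutant. In the 103 gene-poor pairs it was 1.07 (quartiles 0.974 and 1.22), with 71 higher in the mutant. Peak borders were set separately in each list, so these ratios compare slightly different intervals. A pair also had to pass the threshold in both lists. Sites with too few tags in either list are left out, which itself favours ratios near 1.

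Intervals on tag counts and their ratios are exact 95% Poisson and binomial intervals, which cover counting error in these merged libraries only. The interval of the ratio excluded 1 in 10 of the 165 pairs, 9 of them higher in the mutant and 8 of these in gene-poor bins. The intervals are for single pairs and are not adjusted over the 165, so the extremes below are given as values. The lowest ratio was found within 1 kb of the extensin-like gene ELP, with 7 tags in the mutant (chromosome 1, 4091008 to 4091173) and 48 in GL2. This is a ratio of 0.138 (0.0527 to 0.307). Its summits lay 55 bp apart, and it was the only one of the 62 gene-rich pairs with summits over 50 bp apart. The highest ratio in gene-rich bins was at a site over 1 kb from the nearest gene, SAUR26, a gene of the SAUR family of early auxin response genes. It held 23 tags in the mutant (chromosome 3, 986240 to 986375) and 8 in GL2, a ratio of 2.72 (1.17 to 7.03). In gene-poor bins a pair on chromosome 5 (11830057 to 11830758 in the mutant list) reached 3.10 (1.90 to 5.24), but the mutant peak there was 702 bp long and the GL2 peak 145 bp. These extremes were chosen after their values had been seen.

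**Figure D4:**
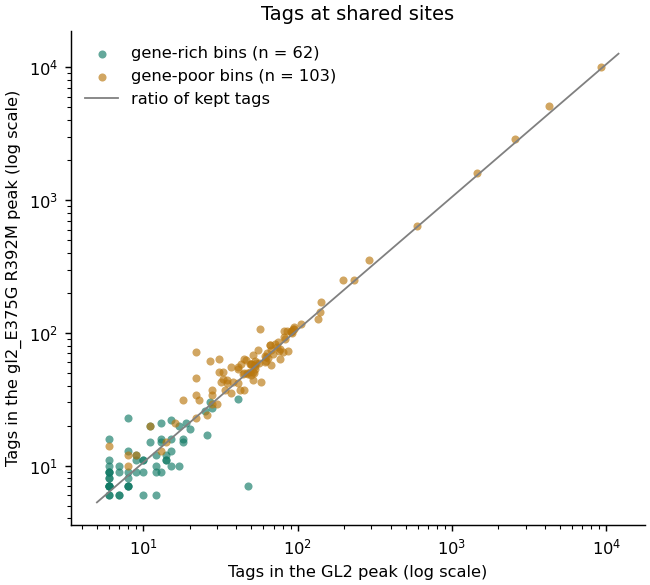
Tags in the mutant peak against tags in its GL2 partner (both axes logarithmic) for the 165 shared pairs in which each peak has a single partner, by bin type; the line marks the ratio of kept ChIP tags, 1.06. Points follow the line from 6 tags to 10046 tags, and the pair beside ELP, with 7 and 48 tags, lies farthest below it.

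The widest shared peaks lay in gene-poor bins. Of the shared mutant peaks, 11 were over 1 kb, and 9 of these ran along chromosome 4 between 3054294 and 4011721. The widest had 12538 bp and 5443 tags (chromosome 4, 3997963 to 4010500), and the one with most tags, 10046, covered AT2G08986 on chromosome 2 (3617937 to 3628104). The GL2 partner at AT2G08986 held 9265 tags, which is a ratio of 1.03 (0.997 to 1.06). Among unshared peaks, 2 mutant-only peaks and 1 GL2-only peak were over 1 kb. The GL2-only one, on chromosome 3 (14191651 to 14205210), held 9923 tags over 13560 bp and had no mutant counterpart. However, its fold was 3.70, its score 90.89 and its FDR 5.34%. In all, shared peaks held 11.1% of the kept mutant ChIP tags and 10.4% of those of GL2, and mutant-only peaks held 2.86%. GL2-only peaks held 4.60%. Without the widest peak of each class, shared peaks held 9.63% in the mutant list and 7.79% in the GL2 list. Mutant-only peaks then held 2.83% and GL2-only peaks 1.79%.

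The share of peaks near a gene followed the kind of bin. A protein-coding gene lay within 1 kb of 418 mutant-only peaks, or 51.5% (48.1 to 55.0), of 297 GL2-only peaks, or 56.7% (52.4 to 60.9), and of 46 shared mutant peaks, or 25.8% (20.0 to 32.7). In gene-rich bins alone the shares were 78.7% (74.9 to 82.0), 81.7% (77.2 to 85.4) and 69.4% (57.0 to 79.4), with overlapping intervals. Among members with 10 tags or more, a limit set here after seeing the data, the shares over all bins were 14.7% (10.6 to 20.0) for mutant-only, 21.8% (15.4 to 30.1) for GL2-only and 15.9% (10.9 to 22.6) for shared mutant peaks. Most members at this limit lay in gene-poor bins, however. In gene-rich bins the limit gave 58.5% (45.1 to 70.7) for mutant-only and 79.3% (61.6 to 90.2) for GL2-only peaks. For shared mutant peaks it gave 60.0% (43.6 to 74.4). In gene-rich bins without a tag limit, the summit fell inside a protein-coding gene for 55.6% (51.3 to 59.9) of the mutant-only peaks, 56.5% (51.2 to 61.7) of the GL2-only peaks and 38.7% (27.6 to 51.2) of the shared ones. Pseudogenes held the summits of 103 mutant-only peaks, or 12.7% (10.6 to 15.2), 53 GL2-only peaks, or 10.1% (7.82 to 13.0), and 5 shared mutant peaks, or 2.81% (1.21 to 6.41). The share of all positions in these bins that lie in or within 1 kb of a gene, or in a pseudogene, is not given here. None of these shares is therefore read as a preference for genes or pseudogenes.

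Mutant-only peaks came within 1 kb of 549 protein-coding genes, 2.0% of the 27444 in the annotation, GL2-only peaks within 1 kb of 400 (1.46%) and shared peaks within 1 kb of 61 in the mutant list (0.222%) and 63 in the GL2 list (0.23%). The mutant-only count depended on the peak limit, with 220 genes at a score of 100 or more and 46 with both lists limited to 10 tags or more. Counting all members, 609 genes (2.22%) lay beside a mutant peak and 462 (1.68%) beside a GL2 peak. The gene sets had 65 genes in common, 10.7% of the mutant set and 14.1% of the GL2 set. Only 4 of these were reached by different peaks in the lists, and they are named here after their values had been seen. At ARF19, an auxin response factor gene, the mutant peak (chromosome 1, 6630284 to 6630350, 8 tags) and the GL2 peak (6626656 to 6626749, 6 tags) lay at separate places. The same held for SUV2, a gene of the DNA damage response, with 6 tags in each list, for MEE38 and for AT4G05612.

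The 10 highest-scoring mutant-only peaks with a gene within 1 kb were all in gene-rich bins and held between 8 and 18 tags. The first, on chromosome 3 (20564244 to 20564312), lay in AT3G55470 and within 1 kb of SCL30, which encodes an SR-type splicing factor, with 16 tags (9.15 to 26.0) and a fold of 103. Next were peaks in the flank of AT1G58390 (chromosome 1, 21694432 to 21694493) and of AT5G38950 (chromosome 5, 15591903 to 15591962), each with 10 tags (4.80 to 18.4) and a fold of 68.3. The peak with most tags of these 10 lay in AT2G34840 (chromosome 2, 14702519 to 14702605), with 18 tags (10.7 to 28.4) and a fold of 40.5. In AT3G47910 (chromosome 3, 17678463 to 17678537) there were 11 tags and a fold of 75.2, and beside AT2G40955 (chromosome 2, 17092262 to 17092343) 12 tags and a fold of 82.0.

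The others of this group fell inside genes. They lay in LRR XI-23 (AT1G09970), a leucine-rich repeat receptor kinase gene, with 14 tags and a fold of 25.3 (chromosome 1, 3252264 to 3252333). In HAC12, which encodes a histone acetyltransferase of the CBP type, 8 tags gave a fold of 54.7 (chromosome 1, 5720095 to 5720153). AT2G32710 had 13 tags and a fold of 88.8 (chromosome 2, 13873335 to 13873427), and AT3G56590 9 tags and a fold of 61.5 (chromosome 3, 20967766 to 20967833). Of these 10 peaks, 4 overlapped a peak of another altered form: those in AT3G55470, AT2G34840, AT3G47910 and LRR XI-23, each found in the gl2_Amo list. The other 6 were in no other fusion list.

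Genes with 2 mutant-only peaks within 1 kb numbered 5. At RING1A, which encodes a subunit of the Polycomb repressive complex 1, both peaks lay in the gene (chromosome 5, 17838792 to 17838864 and 17839265 to 17839335) and held 6 tags each. At MUR4, which encodes an enzyme of arabinose synthesis for the cell wall, 9 tags lay in the gene (chromosome 1, 10854867 to 10854946) and 7 in its flank. BGAL4, a beta-galactosidase gene, and TPR9 had 6 tags in each of their peaks, and AT1G65550 had 6 and 8. Among GL2-only peaks 5 other genes, named after their values had been seen, were reached by a pair: HMGA, a high mobility group protein gene, NRT1:2, a nitrate transporter gene, AT2G20320, MEE38 and AT4G05612, with between 6 and 30 tags a peak.

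The 10 highest-scoring shared peaks with a gene within 1 kb held between 8 and 10046 tags in the mutant list. After AT2G08986, the first was in SKdZeta (AT2G30980), a shaggy-like kinase gene, with 16 tags in the mutant and 6 in GL2 (chromosome 2, 13185654 to 13185732), a ratio of 2.52 (0.938 to 7.87). AT5G24610 held 19 and 20 tags (chromosome 5, 8428138 to 8428228), a ratio of 0.899 (0.454 to 1.77). AT4G39900, which lies near UBP3, a gene for a ubiquitin-specific protease, held 15 and 11 (chromosome 4, 18510477 to 18510567), a ratio of 1.29 (0.554 to 3.10). AT2G01460 held 17 and 26 (chromosome 2, 208265 to 208377), a ratio of 0.618 (0.315 to 1.18). The remainder, at AT3G42075, TIR (AT1G72930, a gene with a Toll/interleukin-1 receptor domain), AT1G47300, AT3G06760 and AT1G55840, had ratios between 0.631 and 2.21. The interval of every ratio in this group of 10 included 1. Their folds in the mutant list ran from 3.74 at AT2G08986 to 109 at SKdZeta, and 8 of the 10 peaks were also in another fusion list.

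The 10 highest-scoring GL2-only peaks with a gene within 1 kb were led by the flank of AT5G50140 (chromosome 5, 20395143 to 20395343), with 84 tags (67.0 to 104) and a fold of 28.9. No mutant peak overlapped it. It was the only gene-rich member of either list with 50 tags or more, and besides GL2 it was listed for gl2_dZip. A peak in the flank of NP3, a mitogen-activated protein kinase kinase kinase gene, held 16 tags (chromosome 3, 1818680 to 1818772, fold 61.9) and was also listed for gl2_dZip. AT1G45180 had 16 tags (chromosome 1, 17101887 to 17101979) and AT3G25716 21 (chromosome 3, 9373567 to 9373723). The others held between 7 and 10 tags. They were at PEX13, which acts in import into peroxisomes, DMS11, a gene of the MORC ATPase family, AT5G41970, AT4G16745, AT5G62710 and AT3G56510.

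Shared sites were mostly sites of the other altered forms as well. In gene-rich bins, 48 of the 62 shared mutant peaks, or 77.4% (65.6 to 86.0), overlapped a peak of gl2_dSTART, gl2_Amo or gl2_dZip, against 67 of 507 mutant-only peaks, or 13.2% (10.5 to 16.4), and 33 of 338 GL2-only peaks, or 9.76% (7.04 to 13.4). At the level of single lists, gl2_dSTART, which is named for the START domain, held 38.7% (27.6 to 51.2) of the gene-rich shared peaks and 6.11% (4.34 to 8.55) of the mutant-only peaks. gl2_Amo held 64.5% (52.1 to 75.3) and 7.30% (5.34 to 9.90), and gl2_dZip 19.4% (11.4 to 30.9) and 3.75% (2.41 to 5.78). The other lists differ in length, with 2539 nuclear peaks for gl2_dSTART, 3533 for gl2_Amo and 1259 for gl2_dZip, so these shares do not rank the forms. Shared peaks were defined as found in both lists, which itself selects sites that recur. Their higher shares are therefore not read as a trait of these sites.

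The tags in a peak moved with this recurrence. In gene-rich bins, mutant-only peaks with 6 tags recurred in another fusion list in 14 of 262 cases, or 5.34% (3.21 to 8.77), and those with 10 tags or more in 26 of 53, or 49.1% (36.1 to 62.1). GL2-only peaks gave 2.53% (1.08 to 5.77) and 55.2% (37.5 to 71.6). Shared mutant peaks with 10 tags or more recurred in 30 of 35 cases, or 85.7% (70.6 to 93.7). In gene-poor bins recurrence was higher in every class: 61.2% (55.6 to 66.5) of mutant-only, 54.8% (47.7 to 61.8) of GL2-only and 115 of 116 shared mutant peaks were in another fusion list. All 116 of these shared peaks held 10 tags or more. With that limit, 150 of 165 gene-poor mutant-only peaks recurred, or 90.9% (85.5 to 94.4). For GL2-only peaks it was 87 of 90, or 96.7% (90.7 to 98.9), so in gene-poor bins the classes lay closer above this limit than over all tag counts. Their tags still differed above the limit. At 50 tags or more stood 82 of the 116 shared, 41 of the 165 mutant-only and 10 of the 90 GL2-only peaks. Over all tag counts in gene-poor bins, gl2_dZip held 21.6% (15.0 to 29.9) of the shared and 30.3% (25.4 to 35.6) of the mutant-only peaks.

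**Figure D5:**
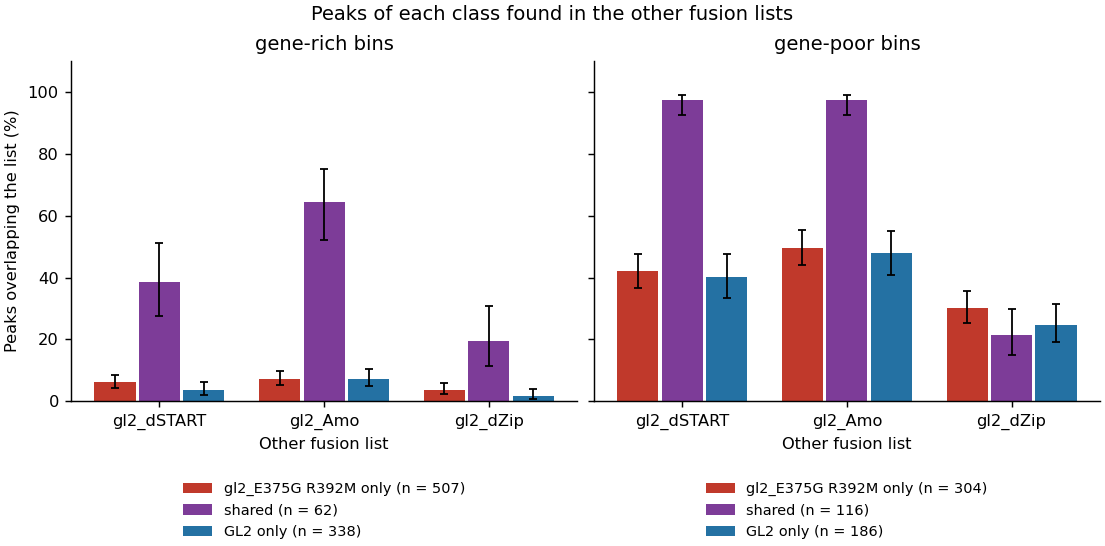
Share of mutant-only, shared (mutant side) and GL2-only peaks that overlap the peak lists of the other altered forms, in gene-rich bins (left) and gene-poor bins (right); bars are shares and lines 95% Wilson intervals. Shared peaks stand above the unshared ones for gl2_dSTART and gl2_Amo in both kinds of bin, and mutant-only and GL2-only peaks lie close together. Peaks of all tag counts are included, and the classes differ in tags. Shared peaks were defined as found in both lists, which itself selects sites that recur.

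Only 15 shared mutant peaks were in no other fusion list, 14 of them in gene-rich bins, and they are described after their values had been seen. In AT1G55840 each list held 8 tags (chromosome 1, 20873708 to 20873778), with summits at the same base. Beside GRXC2, a glutaredoxin gene, the mutant held 16 tags (chromosome 5, 16149875 to 16149958) and GL2 15. The flank of TIR held 10 and 15 tags. The others near genes were in the flanks of CHIL, a chalcone isomerase-like gene of flavonoid synthesis (6 and 7 tags), BCB, a blue copper-binding protein gene (8 and 6), MLO5, a member of the MLO family of membrane proteins (10 and 17), ALPHA DOX2, a fatty acid dioxygenase gene (6 and 12), AT1G10820 (9 and 6) and AT5G46650 (7 and 6), and inside NUA, a nuclear pore gene (6 and 6). Another shared peak lay in NUA (chromosome 1, 29830831 to 29830910, 9 tags in the mutant), which made it the only gene with 2 shared peaks. The interval of the tag ratio included 1 at each of the 15 sites.

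Genes of epidermal programmes and of another cell type were looked up beside the members. Of 105 genes in 8 lists (the class IV HD-Zip family, trichome patterning, root hairs, cuticle, seed coat mucilage, anthocyanin, stomata and, as another cell type, mesophyll), 6 had a mutant-only peak within 1 kb. This is 5.71% (2.64 to 11.9), against the 2.0% of all protein-coding genes. For GL2-only peaks 2 of 105 did, or 1.90% (0.524 to 6.68), against 1.46%. A shared peak lay beside 1 of 105, GL2 itself, against 0.222%. GL2 sequence is present in both the native gene and the transgenes. Without the GL2 gene the counts were 5, 1 and 0 of 104. Lists and members were chosen with earlier results of these data known, so no enrichment is read from these shares. The cuticle, anthocyanin, stomata and mesophyll lists, of 15, 10, 11 and 9 genes, had no gene beside a member. With 2.22% of all genes beside a mutant and 1.68% beside a GL2 member, lists of this size say little by a count of 0.

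In the HD-Zip family, FWA, an imprinted regulator of flowering, had a mutant-only peak of 7 tags in its flank (chromosome 4, 13038153 to 13038246, fold 47.8). ATML1, which specifies epidermal identity, had a GL2-only peak of 11 tags inside the gene (chromosome 4, 11558947 to 11559095, fold 49.6). No mutant peak was listed at ATML1. Its paralog PDF2 carried 12 mutant and 13 GL2 peaks, and every one of them overlapped a gl2-5 peak. The GL2 gene held 8 peaks in each fusion list. Of the 8 in the mutant list, 6 overlapped gl2-5, 1 was shared (chromosome 1, 30037531 to 30037597, 6 tags in each list) and 1 was mutant-only (30039444 to 30039568, 13 tags). The GL2-only peak in the gene (30040463 to 30040548, 7 tags) overlapped a wider mutant peak of 92 tags that was removed for its gl2-5 overlap, so it is GL2-only through that removal. One more GL2-only peak was in this position, on chromosome 5 (11709683 to 11710665, 517 tags).

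Among regulators of epidermal cell fate, EGL3, a bHLH factor that acts upstream of GL2 in trichomes, had a mutant-only peak of 7 tags in its flank (chromosome 1, 23598850 to 23598999, fold 15.9, FDR 6.78%). MYB23, a MYB factor of trichomes, had a peak in both lists, each of 20 tags, that also overlapped gl2-5. Of the 15 root hair genes, LRL2, a bHLH factor of root hair growth, had a mutant-only peak of 6 tags inside the gene (chromosome 4, 15081135 to 15081202, fold 23.9). EXPA7, an expansin of root hairs, had one of 6 tags in its flank (chromosome 1, 4278871 to 4279015, fold 27.3). Of the 9 mucilage genes, BXL1, a beta-xylosidase of the seed coat, had one of 6 tags inside the gene (chromosome 5, 20014370 to 20014426, fold 41.0). No GL2 member lay beside any of the 20 trichome, 15 root hair or 9 mucilage genes, which against the 1.68% of all genes is not read as a difference from the mutant list. Outside the GL2 gene these mutant-only peaks held 6 or 7 tags, at or next to the smallest count among the members, and whether GL2 had tags there below its threshold cannot be read from the lists.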

How the data were processed

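Peak lists of EYFP fusions in 10 day old seedlings were analysed, with 3 merged ChIP libraries for gl2_E375G R392M and for GL2 and 2 for gl2-5, each against 1 input. Whole seedlings were fixed with formaldehyde and the chromatin was broken by ultrasound, per the labels' protocols. Among the tools in the submitters' processing notes are Bowtie2 2.2.3 and MACS2 1.4.2, with TAIR10 as the build. The caller was MACS 1.4.2 per the file headers, with a p threshold of 1e-05. It kept at most 1 tag per position, which removed 98.7% of the mutant and 98.2% of the GL2 ChIP tags. The fitted fragment size was 53 bp for the mutant and 54 bp for GL2, near the tag length of 51 bp, and what this does to peaks was not tested. The deposited tag count per peak is in whole tags, unscaled. The deposited score is a scaled minus log10 p-value. The deposited fold enrichment is a ratio of tags to the local background, and the deposited FDR is a percent. Length and summit are in bp, per the file headers.

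Overlaps, distances and shares were computed with Python 3.11.15, pandas 2.3.3 and scipy 1.17.1, and the overlap functions were tested on simulated intervals. Gene spans came from a RefSeq table on TAIR10.1, used without strand or exons and only for names and for which genes lay within 1 kb of a peak. No genome sequence was used, so no peak sequence or motif is given. Members, gene lists and tests were chosen with earlier results of these data known. All 105 list genes were matched, 6 of them by locus because their short name is ambiguous or missing in the table. Named genes are those within 1 kb of the 10 highest-scoring peaks of each class, list genes with a peak, and genes with 2 mutant-only peaks. Where other genes are named, the text says that they were chosen after their values were seen.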

Additional observations from a re-analysis of the deposited data

How the results depend on the processing

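The share of mutant peaks found in the GL2 list (18.0%) and of GL2 peaks found in the mutant list (25.8%) was 20.8% and 30.5% when peaks within 500 bp counted as shared, 34.5% and 44.9% with gl2-5 overlaps kept, 13.7% and 39.3% at an FDR of 5% or less, 21.8% and 33.3% at a score of 100 or more, 37.7% and 53.4% at 10 tags or more, and 10.9% and 15.5% in gene-rich bins alone. With both lists cut to equal length by score, the GL2 share was 19.7%. The share of mutant-only peaks in gene-poor bins (37.5%) was 23.2% at the FDR limit, 14.3% at the score limit, 73.5% at the tag limit and 24.4% at equal length. That of shared mutant peaks (65.2%) was 39.2% with gl2-5 overlaps kept and 80.6% at the tag limit, and that of GL2-only peaks (35.5%) was 31.2% within 500 bp, 27.7% at the FDR limit and 72.0% at the tag limit. The share of mutant-only peaks within 1 kb of a protein-coding gene (51.5%) was 66.2% at the FDR limit, 70.9% at the score limit, 16.5% at the tag limit, 65.8% at equal length, 62.6% within 3 kb and 78.7% in gene-rich bins. The 549 genes beside mutant-only peaks were 220 at the score limit, 46 at the tag limit and 1092 within 3 kb. Without the fullest bin on chromosome 5, chosen after seeing the data, the shares were 14.8%, 21.1%, 32.8%, 52.7% and, beside a gene, 55.4%. The score limit lowered and the tag limit raised the share of mutant-only peaks in gene-poor bins, and the cause of these and the other shifts was not tested. No paired analysis was possible because the ChIP libraries of each genotype were merged before peaks were called, and for the same reason no library could be left out in turn. The kept tags limit which sites could pass the threshold, and peaks at 6 tags carry wide counting intervals.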

Other observations

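Several of the highest-scoring mutant-only peaks had no protein-coding gene within 1 kb, although they lay in gene-rich bins. The first 5 of them were on chromosome 4 (9839438 to 9839500, 12 tags, fold 77.5), on chromosome 2 (14588306 to 14588368, 11 tags, fold 75.2, and 11328551 to 11328621, 13 tags, fold 47.7) and on chromosome 5 (9561746 to 9561819, 13 tags, fold 60.0, and 9857729 to 9857798, 10 tags, fold 68.3). The 5 highest-scoring shared peaks without a gene within 1 kb were instead all in gene-poor bins and between 3631 and 12538 bp long. Of the 5 such GL2-only peaks 4 were in gene-poor bins, among them a peak of 48 tags on chromosome 2 (5401560 to 5401804, fold 39.4). The first of the 5, on chromosome 5 (11709683 to 11710665, 517 tags), is GL2-only through a removal. It overlapped a mutant peak of 6451 tags that was removed for its gl2-5 overlap.

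Peaks on the mitochondrial genome entered no comparison. The gl2_E375G R392M list held 4 of them, with between 11 and 25 tags, the gl2-5 list 2, with between 5 and 22 tags, and the GL2 list 0. At these numbers no difference between the lists can be read from them.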
